A study of Rattus norvegicus with 24 samples.

Results

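The 70 potassium channel genes described here are those rat genes whose array name begins with Kcn and that gave a signal above background in the brain. They come from 85 such genes (105 probes) on the array, and are 70 of the 23494 named genes and transcripts that passed the same filter. The rule took every non-control probe with such a name, left out Kcnj13 and kept the probes for which the scanner software marked Cy3 and Cy5 signals as well above background on 12 or more of the 24 arrays. It kept 82 probes, and 9 genes had more than 1. The weakest members were the second probe of Kcnt2, above background on 12 arrays, and Kcne2, above it on 15, while the closest genes left out were Kcnh5, above it on 11, and Kcnmb1, above it on 9. No level is given for the other 13 genes left out, among them Kcna7, Kcne1, Kcnh8, Kcnj1, Kcnj2, Kcnq1 and Kcnv2. No member was saturated. By the type of protein they encode, 33 members are pore-forming subunits of voltage-gated channels, 10 are auxiliary subunits, 11 are inward rectifiers, 9 are two-pore-domain channels and 7 are calcium- or sodium-activated channels.

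The arrays measured RNA from 6 brain regions of male Wistar rats aged 10 weeks: midbrain, hypothalamus, amygdala, ventral striatum, cerebral cortex and hippocampus. Rats were injected intraperitoneally with saline or with MK-801 at 0.16 mg/kg (the high dose) or 0.08 mg/kg (the low dose), and the brains were taken 40 minutes later. MK-801 blocks the open channel of the NMDA receptor, a glutamate receptor. The labels count 3 saline rats and 6 MK-801 rats but do not say which animals, or how many, gave the RNA on an array, so every region may come from the same rats. Each region and dose was hybridized against saline RNA of that region on 2 arrays with the dyes exchanged, a dye swap, which gave 12 dye swaps in all. A dye swap was counted as 1 value and the 6 regions served as replicates, so the p-values below measure the spread between regions and not between animals. The study asked how expression along the chromosomes of these regions responds to a single injection.

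Potassium channels let potassium ions leave the cell and so set the resting potential, end each action potential and pace repetitive firing. Voltage-gated channels assemble from pore-forming subunits of 1 family, and the electrically silent subunits (Kcnf, Kcng, Kcns and Kcnv) work only by joining Kcnb partners. Inward rectifiers hold the resting potential, answer G-protein signals in neurons and clear potassium in glia, two-pore-domain channels carry leak current, and auxiliary subunits change the gating or surface number of the channels they bind. Neurons of different regions fire in different ways and carry different sets of these channels.

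Each probe is an oligonucleotide of 60 bases. The first 30 bases of the 5 probes on which the results turn are given below, in the orientation of the array file, with their positions in rat genome build rn3. Those of Kcnv1 and Kcnh3 carried the widest differences between regions, that of Kcne2 the largest difference after MK-801 in a single dye swap, and those of Kcnq5 are a pair that gave different answers.
Kcnv1, chr7:81033644-81033703, minus strand: gctatggctatctgtatactgattatgatt
Kcnh3, chr7:138078664-138078723, plus strand: gtggacccaggaggagggcacaggagtctg
Kcne2, chr11:32345809-32345868, plus strand: tcgtggaggattggcagcagaagtatagga
Kcnq5 first probe, chr9:20341161-20341220, minus strand: tgtaggtttagatagtgtccatattggaat
Kcnq5 second probe, chr9:20293598-20293657, minus strand: atagcagttgtttctgcaaaaactcagggt

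Promoter sequences from RefSeq (assembly GRCr8) were matched by symbol to 40 of the 70 members. The 250 bases before the annotated start are shown for 2 members whose saline level was higher in the 4 telencephalic regions (amygdala, ventral striatum, cortex and hippocampus) than in midbrain and hypothalamus, Kcnj4 and Kcnip2, and for 2 with the opposite order, Kcnj10 and Kcnj16. Capitals mark the letters CANNTG (the E-box) or GGGCGG (the GC box) on either strand; these motifs did not overlap here.
Kcnj4, chr7:112954548-112954797, minus strand: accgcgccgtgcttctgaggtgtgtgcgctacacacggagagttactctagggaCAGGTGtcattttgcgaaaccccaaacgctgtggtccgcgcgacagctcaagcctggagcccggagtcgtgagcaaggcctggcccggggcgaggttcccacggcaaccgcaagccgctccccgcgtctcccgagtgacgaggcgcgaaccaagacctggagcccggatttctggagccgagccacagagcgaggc
Kcnip2, chr1:254613899-254614148, minus strand: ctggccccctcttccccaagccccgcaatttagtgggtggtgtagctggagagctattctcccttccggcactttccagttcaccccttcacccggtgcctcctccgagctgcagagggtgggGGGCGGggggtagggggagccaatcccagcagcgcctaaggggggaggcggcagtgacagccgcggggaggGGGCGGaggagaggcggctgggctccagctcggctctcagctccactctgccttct
Kcnj10, chr13:87334260-87334509, plus strand: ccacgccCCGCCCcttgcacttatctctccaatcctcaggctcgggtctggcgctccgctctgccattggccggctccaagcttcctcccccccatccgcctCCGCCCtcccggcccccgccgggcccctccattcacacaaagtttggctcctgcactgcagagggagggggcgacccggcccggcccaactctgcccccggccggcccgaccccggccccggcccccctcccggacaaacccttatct
Kcnj16, chr10:96517074-96517323, plus strand: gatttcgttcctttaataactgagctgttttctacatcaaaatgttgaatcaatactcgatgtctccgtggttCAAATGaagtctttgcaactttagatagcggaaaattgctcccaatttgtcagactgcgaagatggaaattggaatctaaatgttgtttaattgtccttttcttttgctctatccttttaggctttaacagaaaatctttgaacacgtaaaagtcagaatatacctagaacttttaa

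The Kcnj4 window held 1 E-box and no GC box, and the Kcnip2 window 2 GC boxes and no E-box. The Kcnj10 window held 2 GC boxes and the Kcnj16 window 1 E-box. Neither of these motifs was common to a pair. The letters CCAAT, not capitalised here, had 2 matches in each of the Kcnj10 and Kcnj16 windows, 1 in that of Kcnip2 and 0 in that of Kcnj4. Among the 40 member promoters, 22 (55%) held CANNTG and 19 (47.5%) held GGGCGG, against 65.5% and 30.5% of the 33469 promoters of the same length in the table. CCAAT was in 9 member promoters (22.5%, against 34%), and TATAAA (12.9% of all promoters) and TGACGTCA (1.59% of all promoters) were in 0. These are matches of letters and not binding sites.

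Before the members are described, some properties of the arrays bear on them. Between 55.2% and 78.5% of probes were above background on an array, and the median signal was 1.82 to 3.1 times the background in the Cy3 channel and 3.23 to 5.77 times in Cy5. The logarithmic ratios of the 2 arrays of a dye swap, turned to MK-801 over saline, correlated negatively over all genes (Pearson's r from -0.484 to -0.105 over the 12 swaps). Over all genes, dye thus varied more than treatment on single arrays, and the main fits used only the swap mean. Each region was on a slide of its own, and pairs of regions were scanned on the same day: ventral striatum with cortex, midbrain with amygdala, and hippocampus with hypothalamus. The region labels matched their defining neurons for striatum (6 of 6 measured striatal markers highest there) and midbrain (5 of 5 monoamine markers). Of the hippocampus list 2 of 3 were highest in hippocampus, and Nr3c2, without a complete hippocampal level, was highest in amygdala. The list of cortical and hippocampal projection neurons had 3 of 3 highest in hippocampus, so it did not check the cortex label. Only 3 of 6 hypothalamic markers were highest in the samples labelled hypothalamus. There 5 of 5 thalamic markers were highest (summed level 16.4, against 14.3 in midbrain and 11.4 to 12.5 elsewhere). In the amygdala samples 3 of 3 choroid plexus and 6 of 6 meningeal markers were highest. These contents were not separated from the regional levels below.

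The saline level of a gene is the log2 of its normalized fluorescence intensity in the saline channel, averaged over the 2 dye swaps of a region. It ranks regions within a probe and does not rank genes, because probes differ in brightness. All the levels of 63 members were measured, while 7 (among them Kcnc1, Kcnh1, Kcnj3, Kcnk2 and Kcnq5) lacked 1 or more swaps and are left out of counts. The span, the difference between the highest and the lowest region, was at least 1 log2 unit, which is 2-fold, for 47 of the 63 (74.6%) and for 31.4% of the 20750 genes with all levels. In 41 members (65.1%, against 41.4% of all genes) the highest region was set apart, meaning that both of its dye swaps lay above every swap of every other region. The median span was 2.15 log2 units in the inward rectifiers, 1.54 in the voltage-gated pore subunits, 1.37 in the auxiliary subunits, 1.16 in the calcium- or sodium-activated channels and 1.13 in the two-pore-domain channels, against 0.75 over all genes. The swaps of a region differed by a median of 0.15 to 0.25, and the labels do not say whether they used the same saline RNA. The largest difference of any member was 1.37 in hypothalamus and 0.66 to 0.94 in the other regions. Fewer cells of a type and less RNA per cell cannot be told apart in such tissue samples.

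The 63 members were spread over the regions. Their highest region was cortex for 14, midbrain for 13, ventral striatum for 12, hypothalamus for 12 and hippocampus for 11, and amygdala only for Kcne2 (1.59%, against 13.9% of all genes). In the other regions the members' shares, from 17.5% in hippocampus to 22.2% in cortex, stood beside 14.6% to 19.5% of all genes. In 7 members (11.1%, against 4.11% of all genes) every telencephalic region was above both midbrain and hypothalamus, among them Kcnh3, Kcnip2, Kcnj4, Kcnt2 and Kcnv1. In 9 (14.3%, against 5.27%) midbrain and hypothalamus were above all 4: Kcna6, Kcnab3, Kcnh2, Kcnh6, Kcnip1, Kcnip4, Kcnj10, Kcnj16 and Kcnk10.

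**Figure D1:**
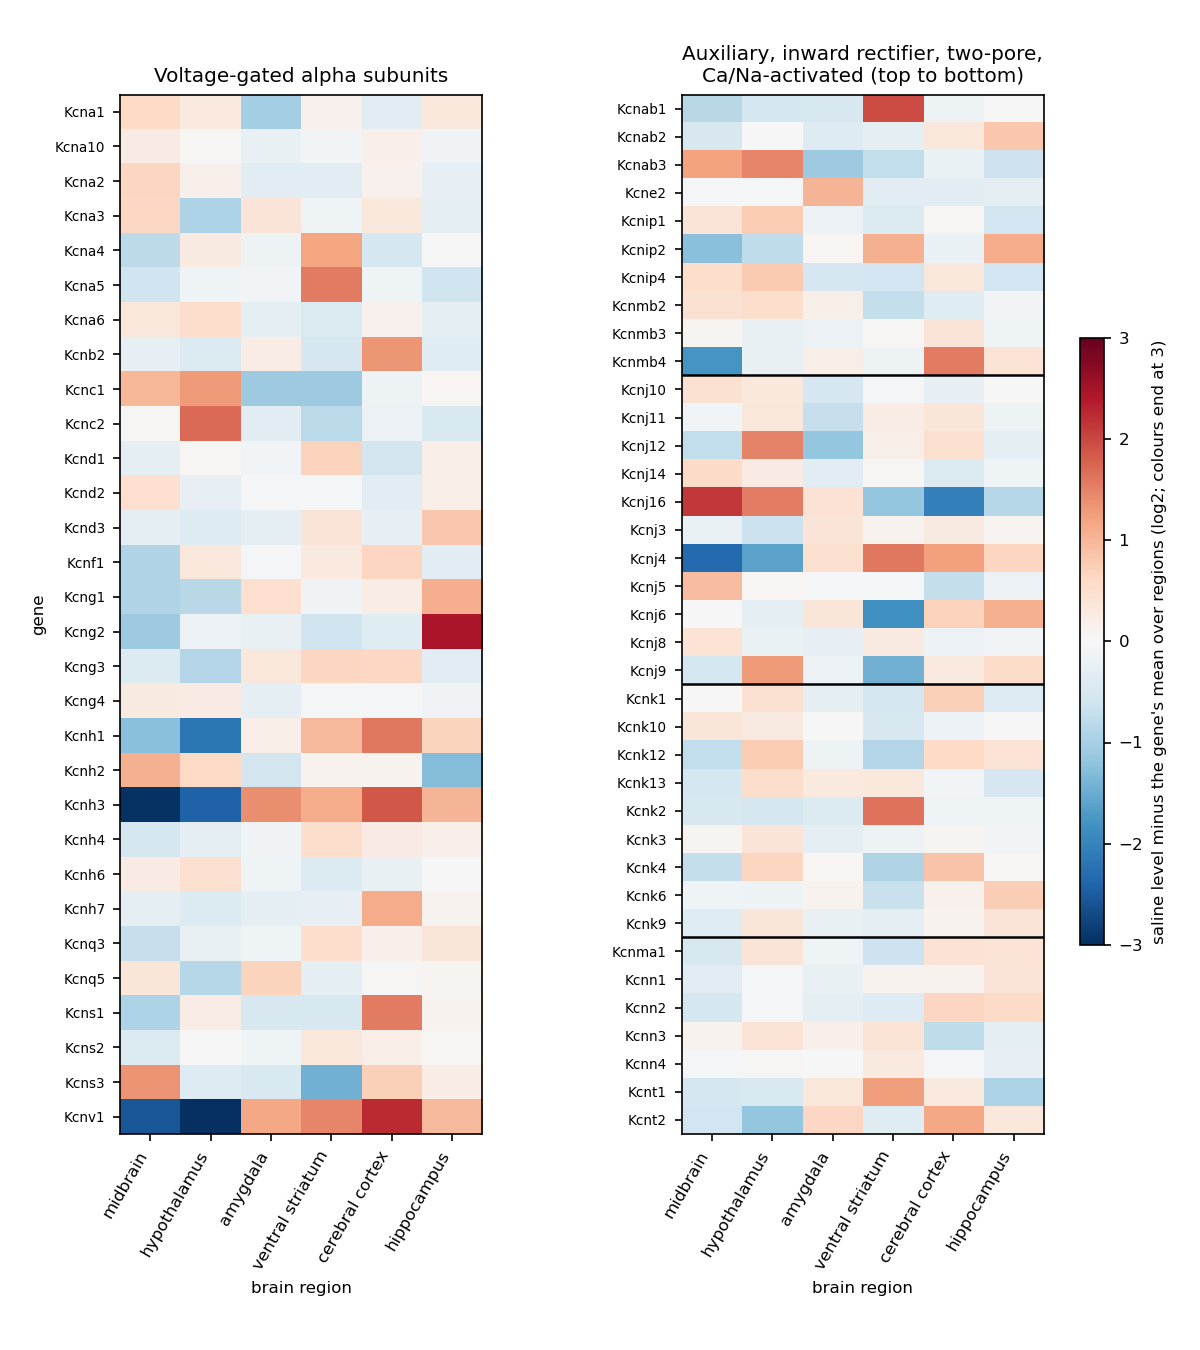
Saline level of the potassium channel genes reported here by region, as the difference from that gene's mean over the 6 regions (log2, colour scale ending at 3), with genes grouped by class. Kcnv1, Kcnh3 and Kcnj4 are lowest in midbrain and hypothalamus, Kcnj16 is highest there, and Kcng2 stands out in hippocampus.

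Among the voltage-gated pore subunits, the silent subunit Kcnv1, which lowers the activity of the Kcnb channels it joins, had the widest span of all members, 5.49 log2 units or 45.1-fold. Its saline levels were 13.02 in cortex, 12.25 in ventral striatum, 11.95 in amygdala, 11.77 in hippocampus, 8.22 in midbrain and 7.52 in hypothalamus. The telencephalic levels and the other pair did not overlap, and the 2 swaps of a region differed by no more than 0.54. Kcnh3, a voltage-gated channel of the Elk group, followed with 4.82 log2 units, or 28.3-fold. Its levels were 11.79 in cortex, 11.33 in amygdala, 11.03 in ventral striatum, 10.95 in hippocampus, 7.51 in hypothalamus and 6.97 in midbrain, where 3 of 4 arrays were above background. It split the regions in the same way, and its neighbours ventral striatum and hippocampus, 11.03 and 10.95, were closer than their swaps.

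Kcnh1, a channel of the Eag group, also was lowest in hypothalamus (10.53) and midbrain (11.45) and highest in cortex (14.28), a 13.4-fold range. Kcnh2, the Erg channel that carries a slowly closing current, ran the other way, from 12.59 in midbrain and 12.13 in hypothalamus to 10.22 in hippocampus. Kcnh7, a channel of the same Erg group, was 9.08 in cortex and 7.55 to 8.07 in the other regions. Of the 6 Kcnh members, Kcnh1, Kcnh3 and Kcnh7 were highest in cortex, Kcnh2 in midbrain, Kcnh4 in ventral striatum and Kcnh6 in hypothalamus.

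Several silent subunits and the Kcnb partner Kcnb2 were marked by a single region. Kcng2 was 10.81 in hippocampus and 7.28 to 8.20 elsewhere, a gap of 2.61 to the next region that was the widest of any member; its 3 probes, all on chromosome 18, spanned 3.52, 2.52 and 2.99 and were all highest in hippocampus. Kcns1 was 9.64 in cortex and 7.15 to 8.30 elsewhere. Kcns3, in contrast, was highest in midbrain (10.82), with cortex next (10.19) and ventral striatum lowest (8.03). Kcnb2, a delayed rectifier with which such silent subunits assemble, was 9.51 in cortex, with the other regions between 7.69 and 8.40. Kcnf1 was 7.85 in cortex and was not above background on any of 4 midbrain arrays, which makes its range at least 2.55-fold.

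In the Kcnc subfamily, whose channels close quickly and permit fast spiking, Kcnc2 was 9.53 in the samples labelled hypothalamus and 7.02 to 7.88 elsewhere. Kcnc1 was also highest there (11.87), only 0.28 above midbrain, and lowest in ventral striatum (9.49). The high thalamic markers in these hypothalamus samples stand beside the levels of Kcnc1 and Kcnc2, and their part in them was not tested.

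The Kcna subfamily holds delayed rectifiers and the fast inactivating Kcna4. Kcna5 was 9.47 in ventral striatum and 7.31 to 7.83 elsewhere, and Kcna4 was 11.58 there and 9.60 to 10.67 elsewhere. Kcna2, Kcna3 and Kcna10 were highest in midbrain and Kcna6 in hypothalamus. The 2 probes of Kcna1 disagreed: the brighter was highest in midbrain (14.39), whereas the second was highest in hippocampus (9.96), with 9.27 in midbrain. The Kcna genes lie in clusters, and 5 pairs of neighbouring members had probes within 200 kb in build rn3. Of these, Kcna3 and Kcna2 (88.5 kb apart) and Kcna2 and Kcna10 (88.4 kb), all on chromosome 2, shared midbrain as their highest region, while Kcna5, Kcna1 and Kcna6 on chromosome 4 (116 and 111 kb) and Kcnj9 and Kcnj10 on chromosome 13 (58.7 kb) did not.

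The remaining voltage-gated subfamilies differed less. Kcnd1, an A-type channel, spanned 1.24 with ventral striatum highest. Kcnq3, a subunit of the M-current that restrains repeated firing, spanned 1.21, and no region was set apart. Kcnq5, another M-current subunit, was highest in amygdala (12.53) and lowest in hypothalamus (11.01). Its span of 1.52 came to 0.96 from the Cy3 saline values and 2.09 from the Cy5 values. The hippocampal level rests on 1 swap. The second probe of Kcnq5 also put hypothalamus lowest (6.92) but hippocampus highest (8.76), with a span of 1.84, so the probes differ in the highest region.

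Among auxiliary subunits, the Kcnab proteins bind Kcna channels. Kcnab1 was 12.26 in ventral striatum and 9.47 to 10.31 elsewhere, and its second probe, with a span of 2.48, was highest there too. Kcnab2 was highest in hippocampus, and Kcnab3 was 10.77 in hypothalamus and 10.53 in midbrain against 8.21 to 9.12 in the telencephalon. Each of the 3 was highest in another region. Kcnip2, a calcium-binding partner of Kcnd channels, was 9.25 in hippocampus and 9.19 in ventral striatum, which did not differ beyond their swaps, then 8.18 in amygdala, 7.93 in cortex, 7.37 in hypothalamus and 6.87 in midbrain. Kcnip1 and Kcnip4, of the same family, were instead highest in hypothalamus.

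Kcnmb4, the neuronal beta subunit of the large calcium-activated channel, was 13.49 in cortex and lowest in midbrain, at 10.17, a 10.0-fold range. Its hypothalamic swaps, 12.19 and 11.26, differed by 0.93. The pore subunit it joins, Kcnma1, spanned 1.05, with cortex 9.34 and hippocampus within 0.02 of it. Kcne2, a single-pass subunit known in the choroid plexus, was 7.97 in amygdala and 6.62 to 6.89 elsewhere, and in hippocampus it was above background on 0 of 4 arrays. All 3 choroid plexus markers (Ttr, Sostdc1 and Folr1) were likewise highest in amygdala, with a summed level of 15.4 there and 8.74 to 13.8 elsewhere.

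Inward rectifiers held both opposite patterns. Kcnj4, a strong rectifier of forebrain neurons, was 10.87 in ventral striatum, 10.50 in cortex, 9.92 in hippocampus, 9.77 in amygdala, 7.67 in hypothalamus and 6.95 in midbrain, the last from 2 of 4 arrays above background. Kcnj16, which joins Kcnj10 in glia, was 10.97 in midbrain, 10.38 in hypothalamus, 9.27 in amygdala, 8.01 in hippocampus, 7.69 in ventral striatum and 6.80 in cortex. The ranges were 15.1-fold for Kcnj4, whose lowest level was near background, and 17.9-fold for Kcnj16, in opposite order, and in each the telencephalic regions lay on 1 side of the other pair. The lowest signal of Kcnj16, 6.80, was no brighter than that of Kcnj4, and its span ran from 3.95 to 5.54 log2 units under other settings. Kcnj10, the main glial channel for potassium uptake, had the same order as Kcnj16 for midbrain and hypothalamus but only a 1.94-fold range, from 7.77 in midbrain to 6.81 in amygdala. Its lowest signal was likewise no brighter than that of Kcnj4, which limits the comparison of these ranges.

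The G-protein-gated members, which neurotransmitters open, also differed. Kcnj6 was highest in hippocampus (10.71) and lowest in ventral striatum (7.81), a 7.46-fold range. Kcnj9 was highest in hypothalamus (10.79) and lowest in ventral striatum (8.06), and Kcnj5 was highest in midbrain. The first probe of Kcnj3 spanned 1.03, with ventral striatum from 1 swap, while another of its probes spanned 1.52, with hippocampus highest (8.30) and ventral striatum lowest (6.78). Kcnj12, a strong rectifier, was 12.97 in hypothalamus and 10.32 to 11.96 elsewhere. Ventral striatum was thus the lowest region for Kcnj6 and Kcnj9 and the highest for Kcnj4.

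Of the two-pore-domain channels, Kcnk2, a leak channel opened by stretch and lipids, was 14.99 in ventral striatum and 12.86 to 13.24 elsewhere, a gap of 1.75. The other members of the class, Kcnk1, Kcnk3, Kcnk4, Kcnk6, Kcnk9, Kcnk10, Kcnk12 and Kcnk13, spanned between 0.68 and 1.76. Among the sodium-activated channels Kcnt1 was highest in ventral striatum (10.44), with hippocampus lowest (8.24), and Kcnt2 was highest in cortex (9.29) and lowest in hypothalamus (6.98); the second probe of Kcnt2 put hippocampus first. The small calcium-activated channels Kcnn1 to Kcnn4 spanned between 0.54 and 1.19.

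**Figure D2:**
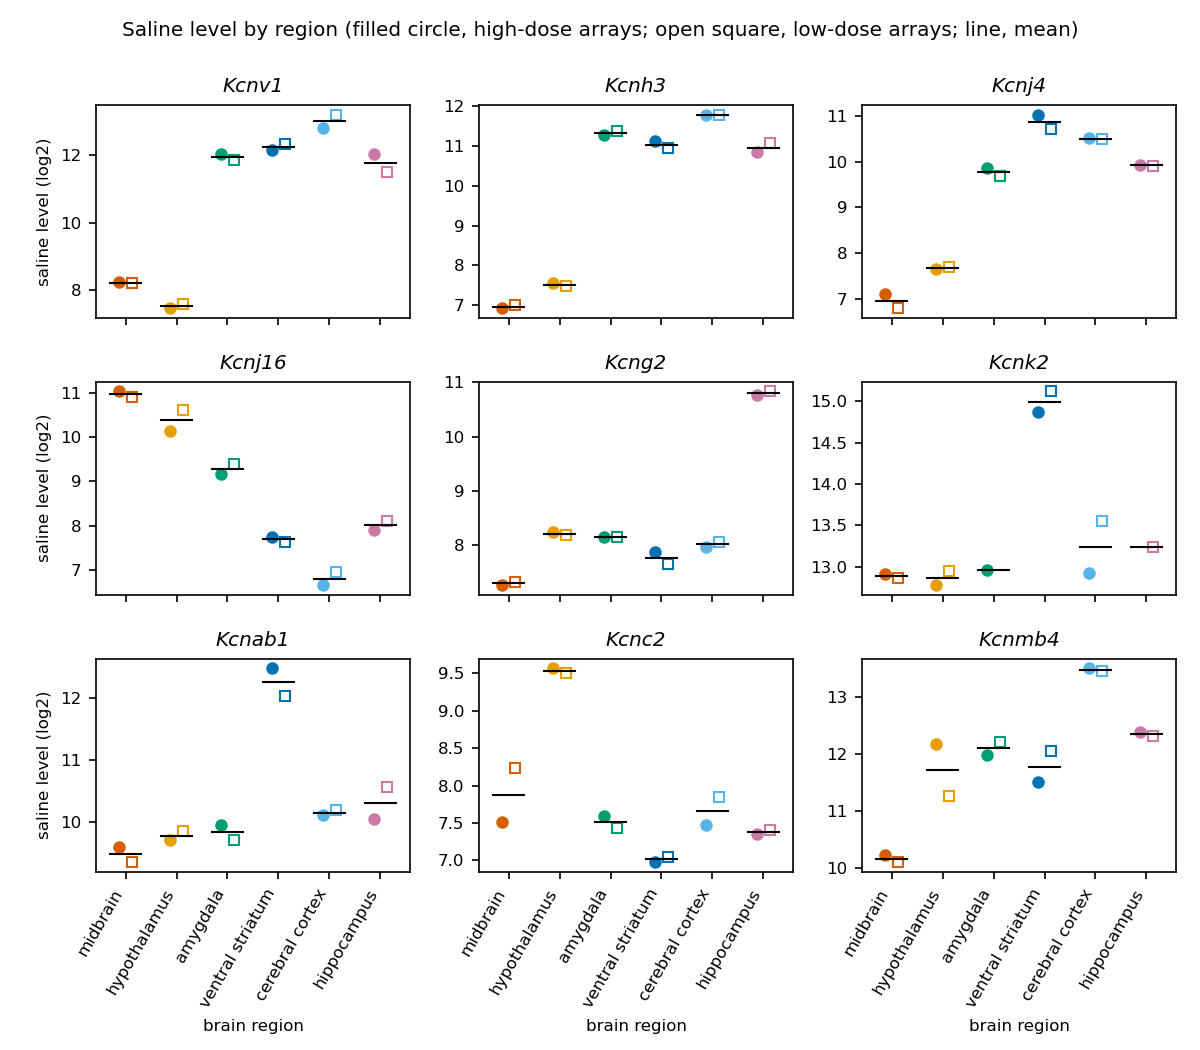
Saline level (log2 of normalized intensity) of selected potassium channel genes in the 6 regions; each point is 1 dye swap (filled, high-dose arrays; open, low-dose arrays) and each bar the mean of a region's swaps. Kcnv1, Kcnh3 and Kcnj4 are high in the 4 telencephalic regions, Kcnj16 is high in midbrain and hypothalamus, and Kcng2 is highest in hippocampus.

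Scaling the scanner's own processed signal to its 75th percentile widened most ranges, with a median span of 2.00 over the 70 members in place of 1.38. The span grew more than 1.5 times for Kcnf1 (4.64), Kcne2 (2.91), Kcnip2 (3.90) and Kcnc2 (3.94), all dim in at least 1 region.

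After MK-801 the potassium channel genes moved little, as did genes in general. Over both doses, 0 of 69 members tested passed the threshold of an adjusted p under 0.05 (limma with Benjamini-Hochberg adjustment over all genes), against 2.62% of the 23114 genes tested. At an unadjusted p under 0.05 there were 9 members, and 13.7% of all genes. At the high dose 0 of 70 passed (9 unadjusted), beside 2.12% (12% unadjusted) of all genes. At the low dose 1 of 70 passed (7 unadjusted), beside 2.61% (13.3%) of all genes. For the difference of the doses, high minus low, 1 of 69 passed (9 unadjusted), beside 1.52% (10.8%). The single gene in both was Kcnq5. Without hippocampus Kcna5 also passed over both doses, and leaving out 1 region moved the counts to between 0 and 2 in the 4 fits.

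Over all members the sizes of the differences were near those of all genes. The median log2 ratio of MK-801 over saline over both doses was -0.00 in the members and 0.00 in all genes, and the median size without sign was 0.023 in the members and 0.022 in all genes. By class that size was 0.048 in the inward rectifiers, 0.034 in the voltage-gated pore subunits, 0.017 in the auxiliary subunits, 0.013 in the calcium- or sodium-activated channels and 0.012 in the two-pore-domain channels. Of the 69 members 33 had a mean above 0. By class, 10 of 32 voltage-gated pore subunits, 8 of 10 auxiliary subunits, 5 of 11 inward rectifiers, 6 of 9 two-pore-domain channels and 4 of 7 calcium- or sodium-activated channels had a mean above 0, with class medians between -0.01 and 0.01. The classes were not tested as groups.

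**Figure D3:**
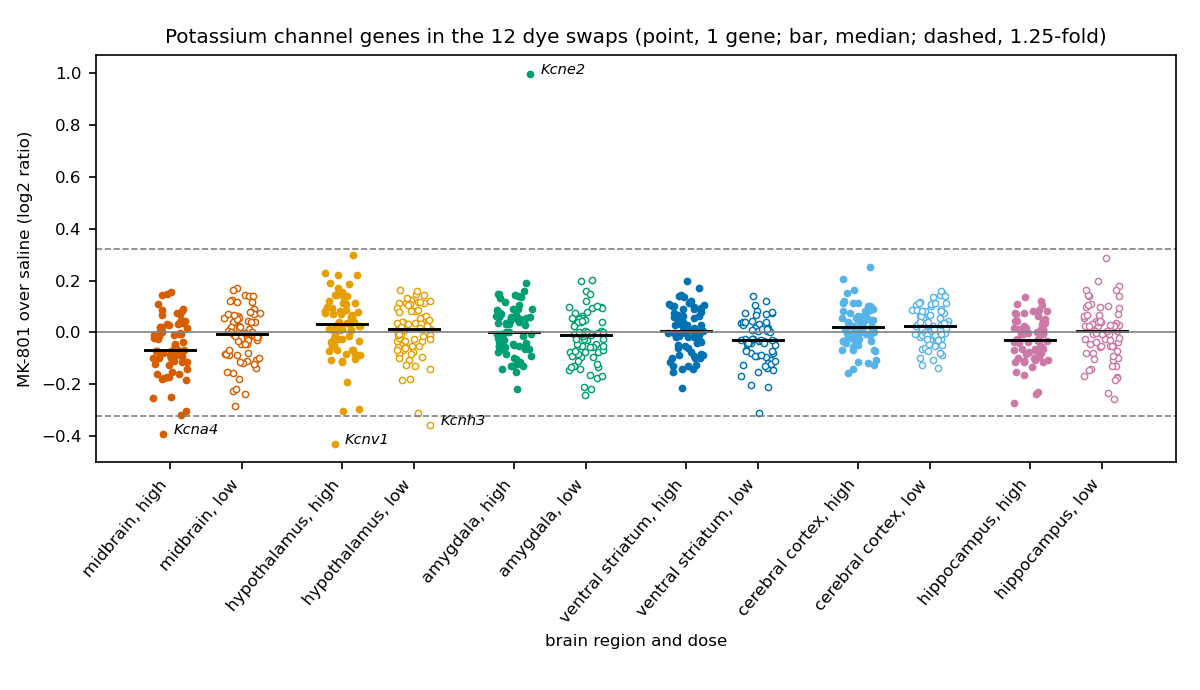
Log2 ratio of MK-801 over saline for every potassium channel gene in each of the 12 dye swaps (6 regions at the high and the low dose), with points more than 0.32 from 0 named. Most points lie near 0, and only Kcne2 in amygdala, Kcna4 in midbrain, Kcnv1 and Kcnh3 in hypothalamus pass the lines.

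Single dye swaps show the same. A log2 ratio further than 0.32 from 0, was reached by 1 of 69 members in midbrain at the high dose (2.07% of all genes), 1 of 69 in amygdala at the high dose (1.06%), 1 of 70 in hypothalamus at the high dose (1.07%) and 1 of 70 in hypothalamus at the low dose (0.689%). In the other 8 swaps 0 members did so. The shares of all genes there were 0.964% in ventral striatum, 0.88% in cortex and 0.944% in hippocampus at the high dose, and 1.05% in midbrain, 1.47% in amygdala, 0.776% in ventral striatum, 1.18% in cortex and 1.21% in hippocampus at the low dose. A single swap has no replicate check. The 4 were Kcna4 (-0.39), Kcne2 (1.00), Kcnv1 (-0.43) and Kcnh3 (-0.36), and the members' medians per swap lay between -0.07, in midbrain at the high dose, and 0.03.

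Kcnq5, the M-current subunit, was the member called lower at the low dose, through its first probe only. The low-dose log2 ratios of its first probe, the brighter one, were -0.24 in midbrain, -0.21 in ventral striatum, -0.18 in hypothalamus, -0.14 in amygdala and -0.13 in cortex, and hippocampus gave no complete swap. In each of these 5 regions both arrays of the swap were below 0. At the high dose the ratios were 0.17 in hypothalamus, 0.04 in cortex, 0.03 in ventral striatum, -0.01 in amygdala, -0.05 in midbrain and -0.24 in hippocampus. The 2 doses did not overlap in the 5 regions that had both, while the high-dose hippocampus lay as low as the low-dose midbrain.

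The mean of Kcnq5 at the low dose was -0.18 ± 0.05 (SD, n = 5 regions), lower in 5 of 5, with an adjusted p of 0.00624 (limma, Benjamini-Hochberg). At this threshold and direction 1.32% of all genes were called. The high dose gave -0.01 ± 0.13 (n = 6, adjusted p = 0.966), and high minus low gave 0.22 ± 0.08 (n = 5, higher in 5 of 5, adjusted p = 0.0152), where 0.887% of all genes were called higher. Without ventral striatum the adjusted p of the dose difference was 0.0793 and without hypothalamus 0.0685. From the scanner's own log ratio the low-dose adjusted p was 0.0537.

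**Figure D4:**
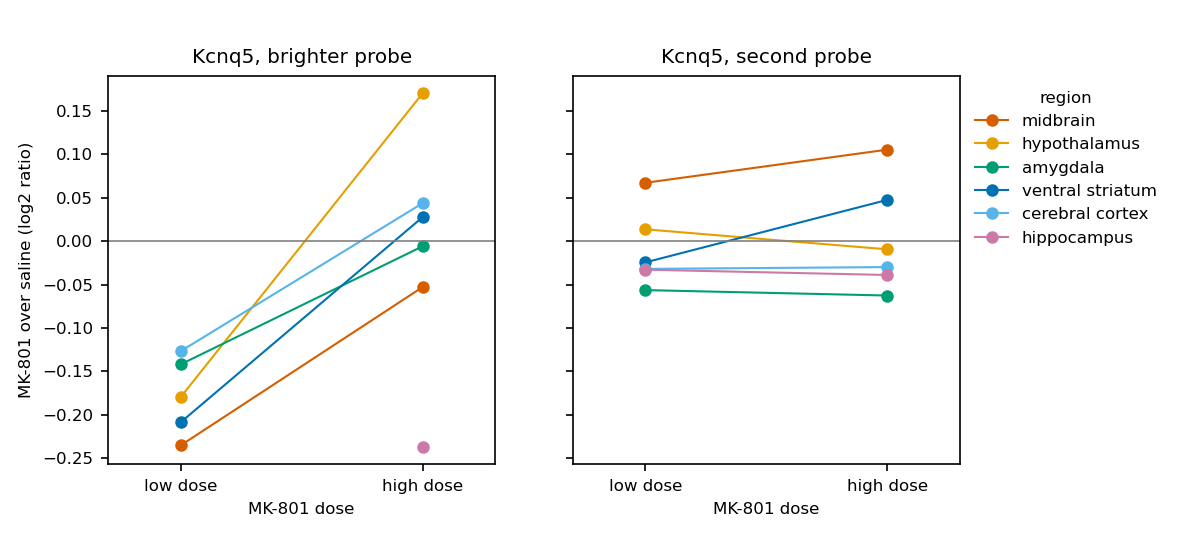
Log2 ratio of MK-801 over saline for the 2 probes of Kcnq5, per region and dose. The low-dose points of the first probe lie between -0.24 and -0.13, below its high-dose points in every region with both, while the low-dose points of the second probe lie between -0.06 and 0.07.

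The second Kcnq5 probe did not show this. It lies 3′ of the first on the gene's minus strand, was above background on 23 arrays, and its low-dose ratios were 0.07 in midbrain, 0.01 in hypothalamus, -0.02 in ventral striatum, -0.03 in cortex, -0.03 in hippocampus and -0.06 in amygdala. Its mean was -0.01 ± 0.04 (n = 6) at the low dose, with an adjusted p of 0.917 in limma over all probes, and 0.00 ± 0.06 at the high dose. The fall is therefore a measurement of 1 probe. With the probes averaged the low-dose adjusted p was 0.0521 and that of the dose difference 0.333. The difference between the probes was not tested.

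Marker genes that moved with the doses stand beside Kcnq5. Of red blood cell genes 3 of 3 rose at the high dose (median 0.30), 2 of 3 fell at the low dose (median -0.31), and all 3 rose from low to high. At the low dose 3 of 6 microglial and 2 of 7 oligodendrocyte genes rose, as did 1 of 6 astrocyte and 1 of 3 projection neuron genes, and 2 of 8 endothelial and pericyte genes and 1 of 6 meningeal genes fell, while 0 of 5 general neuronal genes passed (median 0.02). Their part in the Kcnq5 difference was not tested.

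Kcnv1 had the lowest mean over both doses, -0.13 ± 0.13 (n = 6, lower in 6 of 6), with an adjusted p of 0.134 in limma. Its ratios at the high and low dose were -0.43 and -0.31 in hypothalamus, -0.32 and -0.02 in midbrain, -0.11 and 0.01 in hippocampus, -0.09 and -0.07 in ventral striatum, -0.04 and -0.07 in amygdala and -0.02 and -0.08 in cortex. The low values were those of hypothalamus and midbrain, the regions where its saline level was lowest. In hypothalamus both dye orientations were below 0 at both doses (-0.38 and -0.48, then -0.20 and -0.42), whereas in midbrain at the high dose they were 0.06 and -0.70. Without hypothalamus the mean was -0.08 (adjusted p = 0.156).

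Kcnh3, whose saline level was also low in those regions, was -0.30 and -0.36 in hypothalamus at the high and low dose and 0.03 and 0.04 in midbrain. Elsewhere its ratios lay between -0.12 and 0.11. Its mean over both doses was -0.07 ± 0.14 (adjusted p = 0.58), and -0.01 without hypothalamus. Other members with low saline levels there had smaller ratios in hypothalamus at the high and low dose: Kcnj4 -0.12 and -0.10, Kcnip2 -0.09 and 0.01, and Kcnt2 0.11 and 0.05. In the same hypothalamic swaps 6 of 6 striatal markers were lower (median -0.30 at the high and -0.27 at the low dose), and the forebrain projection neuron marker Neurod2 was -0.32 at both doses while Slc17a7 was 0.01 at both and Rasgrf2 was 0.13 and 0.27. Of the hypothalamic markers 4 of 6 were lower at each dose, with medians of -0.02 and -0.09, and Pmch was the lowest at -2.96 and -1.76. The part of these markers in the Kcnv1 and Kcnh3 values was not tested.

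Kcne2 had the highest mean, 0.12 ± 0.25 (n = 6, higher in 5 of 6, adjusted p = 0.525). Its high-dose ratios were 1.00 in amygdala, 0.12 in ventral striatum, 0.06 in cortex, 0.03 in midbrain, -0.08 in hippocampus and -0.11 in hypothalamus, and its low-dose ratios 0.20, -0.03, 0.14, 0.07, -0.13 and 0.11 in the same order. The amygdala value alone was far above the rest, with 1.02 and 0.97 in the 2 dye orientations. Without amygdala the mean was 0.02. In that swap 3 of 3 choroid plexus markers were higher: Ttr 1.34, Sostdc1 1.61 and Folr1 0.90, and at the low dose 0.19, 0.50 and 0.20. In hypothalamus at the high dose Ttr was -2.0, Sostdc1 -1.19 and Folr1 -0.38. In hippocampus all 3 were lower at both doses, with Ttr at -2.62 and -2.20, Sostdc1 at -1.35 and -1.56 and Folr1 at -0.20 and -0.35. In midbrain all 3 were lower at both doses (medians -0.14 and -0.09), and in cortex all 3 were lower at the low dose (median -0.01). Kcne2 was above 0 in each of these swaps. In cortex at the high dose and hypothalamus at the low dose all 3 were higher, as was Kcne2. The part of choroid plexus in the Kcne2 values was not tested.

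**Figure D5:**
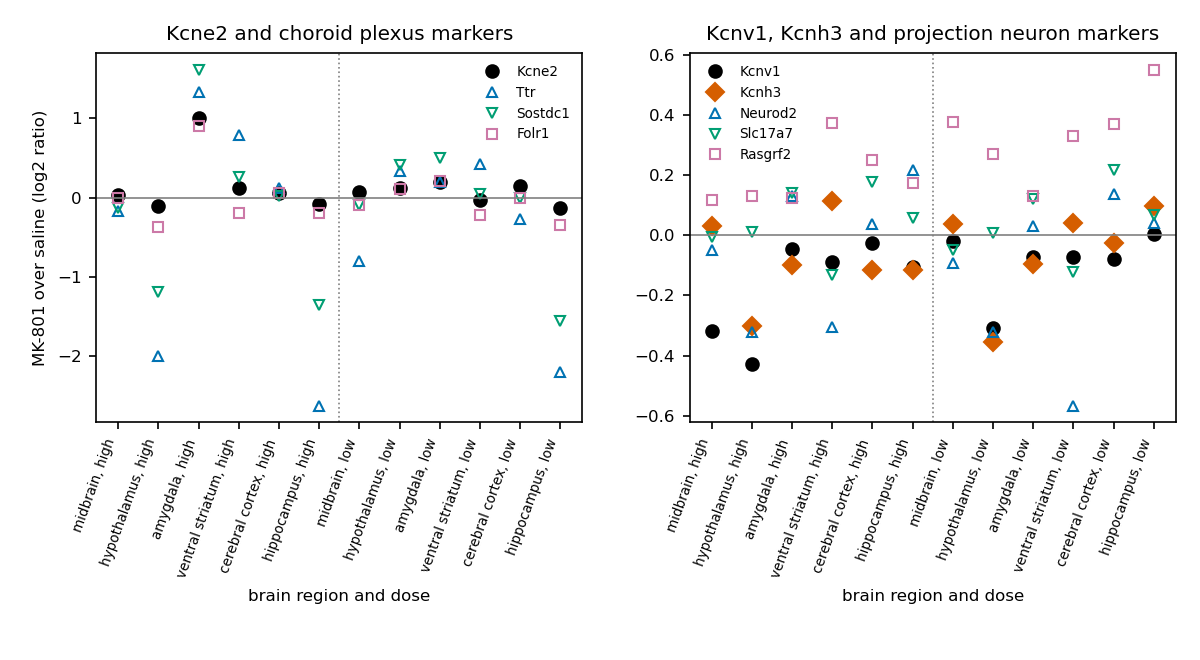
Log2 ratio of MK-801 over saline of Kcne2, Kcnv1 and Kcnh3 beside choroid plexus markers (left) and forebrain projection neuron markers (right) in the same dye swaps, by region and dose. Kcne2 and the 3 choroid plexus markers are all above 0 in amygdala at both doses, and Kcnv1, Kcnh3 and the projection neuron marker Neurod2 are below 0 in hypothalamus at both doses, while Slc17a7 and Rasgrf2 are above 0 there.

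Kcna5 and Kcnj8 were the other members with a mean above 0.08. Kcna5 had a mean of 0.09 ± 0.06 (n = 6, higher in 5 of 6), with an adjusted p of 0.0804 in limma. Its high and low values were 0.15 and 0.14 in midbrain, 0.12 and 0.06 in hypothalamus, 0.09 and 0.16 in amygdala, 0.14 and 0.14 in ventral striatum, 0.15 and 0.01 in cortex and -0.00 and -0.04 in hippocampus. Hippocampus alone was not above 0, and without it the mean was 0.12 with an adjusted p of 0.0230. Kcnj8, the pore of the ATP-sensitive channel of vessels, had a mean of 0.08 ± 0.07 (higher in 5 of 6, adjusted p = 0.165), with its highest ratio, 0.25, in cortex at the high dose. Among 8 endothelial and pericyte genes, 0 rose and 2 fell over both doses, where 2.62% of all genes passed in either direction. Their part in the Kcnj8 values was not tested.

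Of the members with lower means, Kcnj3, a G-protein-gated rectifier, was -0.09 ± 0.09 (lower in 5 of 5 regions, adjusted p = 0.274), with both its lowest ratios, -0.23 and -0.26, in hippocampus. Kcna3 was -0.08 ± 0.09 (adjusted p = 0.249). At the low dose alone Kcna3 was lower in 6 of 6 regions, from -0.20 in ventral striatum to -0.01 in cortex, with a mean of -0.12 and an adjusted p of 0.0695, and it passed without cortex. Kcnj6 was -0.06 ± 0.10, with -0.31 in ventral striatum at the low dose, and Kcnc1 -0.06 ± 0.16, with -0.30 in hypothalamus at the high dose and 0.20 in ventral striatum. None of the 4 passed over both doses. Kcnh1 had high-dose ratios from -0.19 in hypothalamus to -0.01 in cortex, with hippocampus missing, and a mean of -0.13 (below 0 in 5 of 5 regions, adjusted p = 0.0884), and it passed without cortex or with each array as a replicate.

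In midbrain at the high dose, where the members' median was lowest, Kcna4 was -0.39, but -0.17 and -0.61 on its 2 arrays, and -0.18 at the low dose. In the other regions its ratios lay between -0.14 and 0.10. In that swap 5 of 5 thalamic markers were lower (median -0.22) and 6 of 6 meningeal markers higher (median 0.59). At the low dose the same 5 thalamic markers were lower (median -0.17), but 6 of 6 meningeal markers were lower too (median -0.27). Other lists also moved in midbrain. Among them, oligodendrocyte genes had medians of 0.20 and 0.22 and microglial genes 0.08 and 0.16 at the high and low dose. Their part in the Kcna4 value was not tested. The probes of Kcnt2 (0.02 and -0.01 over both doses) differed in sign at sizes below their spread.

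Genes that work with potassium channels were counted from 2 lists. Of channel partners 0 of 7 of those measured passed in any of the 4 fits. Of potassium pumps and carriers, Atp1b2, a beta subunit of the sodium-potassium pump, fell: its first probe was -0.28 ± 0.04 at the high dose (lower in 5 of 5 regions, adjusted p = 0.000379 in limma) and -0.11 over both doses (adjusted p = 0.0321), and high minus low was -0.34 (adjusted p = 0.000173). It was 0.08 at the low dose and did not pass there. Its other 2 probes gave -0.10 and -0.06 at the high dose (adjusted p = 0.192 and 0.451 over all probes). Over both doses they gave -0.017 and -0.025 (adjusted p = 0.808 and 0.659 in limma over all probes). For high minus low the second probe passed (-0.16, adjusted p = 0.0369 over all probes) and the third did not (-0.07, adjusted p = 0.559). The falls at the high dose and over both doses thus passed on 1 of 3 probes and the dose difference on 2 of 3. None of the other 7 pumps and carriers tested over both doses passed.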

How the data were processed

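The deposited files are the scanner output of 24 two-colour arrays with 45018 spots. Spot fluorescence intensity was extracted by the authors with Agilent Feature Extraction 9.5.3.1, per the submitters' processing notes, and probe positions are in build rn3, per the file headers. The deposited log10 ratio of Cy5 over Cy3 and the deposited series table of log10 ratios were used as alternatives. Scanner ratios were set to 0 at 8.1% to 25.0% of spots per array, where the series table kept a value.

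Background was corrected with normexp (offset 50) and dyes were normalized by loess within each array in limma 3.58.1 (R 4.3.3), which gave log2 ratios from the deposited intensities. Control spots had weight 0, outlier spots were dropped, and replicate spots averaged. Ratios were turned to MK-801 over saline by the dyes in the labels, and 27690 of 41012 probes, well above background on at least 12 arrays, were kept. The probe with the highest mean intensity stood for a gene. Genes with values in at least 4 of 6 regions were tested against 0 (lmFit and eBayes, two-sided, Benjamini-Hochberg over all genes, threshold 0.05). Saline levels were scaled between arrays by Aquantile and were described without a test. The number of arrays limits the precision of all values. The fits were tested on simulated data.

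The members and lists were chosen with earlier results of these data known. The genes named are those called in a fit, the 10 with the largest means over both doses, those with the widest saline span of their subfamily, those whose highest region was at least 1 log2 unit above the next, and those whose probes differed in sign, 28 in all; other genes were named after their values were seen, to fill in their subfamily. Some genes that meet these rules are not reported here, though counts over all members include them. Replicate numbers stand for dye orientation, not for animals. In a fit of single arrays, orientation was a covariate and region the block. Its consensus correlation was 0.07 over both doses, -0.03 at the high and -0.01 at the low dose. Alternatives changed the signal, the filter, the probe rule, the prior, the regions and the scan day. The electrophysiology of the study is not analysed here.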

Additional observations from a re-analysis of the deposited data

Results flagged for a closer look

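In 3 of 14 sets of 5 or 6 regional values examined, 1 region lay far from the others by Dixon's test. The genes were picked for a call, a large mean or probes of opposite sign, and 1 far region can enlarge a mean. The rate of about 1 in 20 for unselected sets is thus no measure for these. Kcnv1 over both doses was -0.37 in hypothalamus, and the other regions lay between -0.17 and -0.05. Kcne2 over both doses was 0.60 in amygdala, with the other regions between -0.10 and 0.10. Kcna5 over both doses was -0.0237 in hippocampus and 0.08 to 0.15 in the other regions.

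The response of Kcnq5 differed between the doses: high minus low was 0.22 on the log2 scale (n = 5 regions, adjusted p = 0.0152 in limma), and this rests on 1 of its 2 probes.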

How the results depend on the processing

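Over both doses, 0 members passed in the main analysis, and 4 (Kcna5, Kcnj8, Kcnq5 and Kcnv1) with single arrays, dye orientation as a covariate and region as the block. Leaving out 1 region gave 0 to 1. At the high dose the count went from 0 to 1 (Kcnh1) with the block, and leaving out 1 region gave 0 to 1. At the low dose the 1 call, Kcnq5, was lost (0 members) with the scanner's log ratio, the series table, probes averaged, genes with all 6 regional values only, which leaves Kcnq5 out, and each scan day alone; the block gave 2 (Kcnab3 and Kcnq5) and leaving out 1 region 1 to 2. For high minus low the 1 call became 0 in the same settings and stayed 1 with the block, and leaving out 1 region gave 0 to 1. Because its correlations were small, the block fit in effect treats arrays of the same RNA as separate, so its counts are not stronger evidence. The mean of Kcnq5 ranged from -0.19 to -0.09 at the low dose (adjusted p 0.000308 to 0.913) and from 0.09 to 0.24 for high minus low (adjusted p 0.00192 to 0.654). Among uncalled means the sign turned for Kcne2 (-0.0498 in hippocampus and hypothalamus), Kcnh3 (0.0035) and Kcnc1 (0.0738) in ventral striatum and cortex, Kcnt2 (-0.0091 in midbrain and amygdala) and Kcnq5 at the high dose (0.0358 in ventral striatum and cortex; leaving out 1 region gave -0.0449 to 0.0367, the latter without hippocampus). The cause was not tested. In saline, under 6 other settings, 46 to 60 members spanned 1 log2 unit or more and 34 to 45 had their highest region set apart; of 22 named genes 20 to 22 kept their highest region (Kcnip2, Kcnn3 and Kcnma1 did not in some), and 53 of 132 named spans moved by more than their spread. Signal near background limits Kcne2, Kcnf1 and Kcnj4 in their lowest regions. Others, among them Kcnc2, Kcnh3, Kcnip2, Kcnj10, Kcnj16 and Kcnt2, had similarly dim signal in theirs.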
